A study of Homo sapiens with 6 samples.

Results

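The mRNA levels of 10 genes of the autophagy machinery that AMPK feeds into were compared between HT29 cells with and without knockdown of ALDOA, the glycolytic enzyme aldolase A. The genes were taken as a fixed list of symbols: ULK1, BECN1, ATG5, ATG7, ATG16L1, MAP1LC3B, GABARAPL1, SQSTM1, WIPI1 and TFEB. They are 10 of 28278 genes listed in the count files, and 10 of 10 passed the filter on low counts, which left 15307 genes for testing. HT29 is an established line of human colorectal adenocarcinoma with epithelial morphology. In the siALDOA group 3 libraries came from cells given an siRNA against ALDOA, and in the siControl group 3 libraries came from cells given a scrambled siRNA. All cells were therefore transfected, and RNA was taken after 48 h. The model is 1 cell line with a transient knockdown, and untransfected cells were not analysed here. The labels call the replicates biological, without naming separate cultures, so the p-values measure the spread between these libraries.

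Autophagy encloses cytoplasm in a double membrane, the autophagosome, and delivers it to the lysosome. When energy is low, AMPK phosphorylates the kinase ULK1, which starts the process, a lipid kinase complex with Beclin 1 then marks the membrane, and a ubiquitin-like conjugation system attaches ATG8 proteins such as LC3B to it. Cargo receptors such as p62 bind both ATG8 proteins and ubiquitinated cargo and are themselves degraded with it, while TFEB switches on autophagy and lysosome genes when it enters the nucleus. Much of this control acts on proteins. Read counts report mRNA levels and give neither phosphorylation, LC3 lipidation nor autophagic flux.

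ALDOA was lower in every siALDOA library. Its level was 283, 305 and 280 CPM (read counts scaled to library size with trimmed mean of M-values factors) in siALDOA replicates 1 to 3, against 592, 637 and 668 CPM in the siControl replicates, a log2 fold change of -1.13 (SE 0.0601, edgeR quasi-likelihood test, Benjamini-Hochberg adjusted p = 6.95e-11). Library totals were 27277538 to 28690395 counts with siALDOA and 31899091 to 33237914 with siControl. Ribosomal RNA took 13.1%, 7.71% and 8.11% of the siALDOA totals and 17.4%, 15.3% and 8.15% of the siControl totals. With ribosomal RNA genes left out, SQSTM1 and MAP1LC3B were still called lower, at -0.38 and -0.21. Epithelial markers summed to 9470 to 9800 CPM with siALDOA and 10000 to 10600 CPM with siControl, with 9 of 10 tested and LGALS4 listed at 0. KRT8, at 4870 to 5800 CPM, made up most of this sum, and of the 9 markers KRT19 rose, KRT18 fell and 7 did not pass, with log2 fold changes of 0.38 for KRT19 and -0.28 for KRT18 (edgeR adjusted p = 0.000577 and 0.0152). Fibroblast markers summed to at most 4.46 CPM in any library. Blood cell markers summed to 16.5 to 18.1 against 12.9 to 14.5 CPM, almost entirely from CD14, while CD3E, TYROBP and PPBP were listed at 0. CD14, the only 1 of these 10 markers tested, rose, with a log2 fold change of 0.32 (SE 0.102, edgeR adjusted p = 0.0485). The part of these marker shifts in the results was not tested. In all, 7308 genes were listed at 0 in every library, among them ZYX, a gene used by nearly all cells, so a listed 0 is not read here as absence of the transcript.

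Of the 10 genes, 2 fell with siALDOA, 0 rose and 8 did not pass the test. The 2 that fell were SQSTM1, which encodes the cargo receptor p62, and MAP1LC3B, which encodes LC3B. An adjusted p below 0.05 in the edgeR quasi-likelihood test was reached by 9.66% of all tested genes, 4.36% as higher and 5.29% as lower. DESeq2 and limma-voom also gave 0 higher and 2 lower, and at an unadjusted p below 0.05 there were 0 higher and 3 lower. That cut was passed by 23.6% of all tested genes, 11.3% as higher and 12.3% as lower. At the unadjusted P < 0.01, which 12.5% of all tested genes passed, the count was again 0 higher and 2 lower. The siALDOA and siControl ranges did not overlap for 3 of the 10 genes (ULK1, MAP1LC3B and SQSTM1, with siALDOA below in each), against 27.7% of all tested genes. The median log2 fold change of the 10 genes was -0.06, and that of all tested genes was 0.0016. The share called was 20%, which rests on 2 genes.

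**Figure D1:**
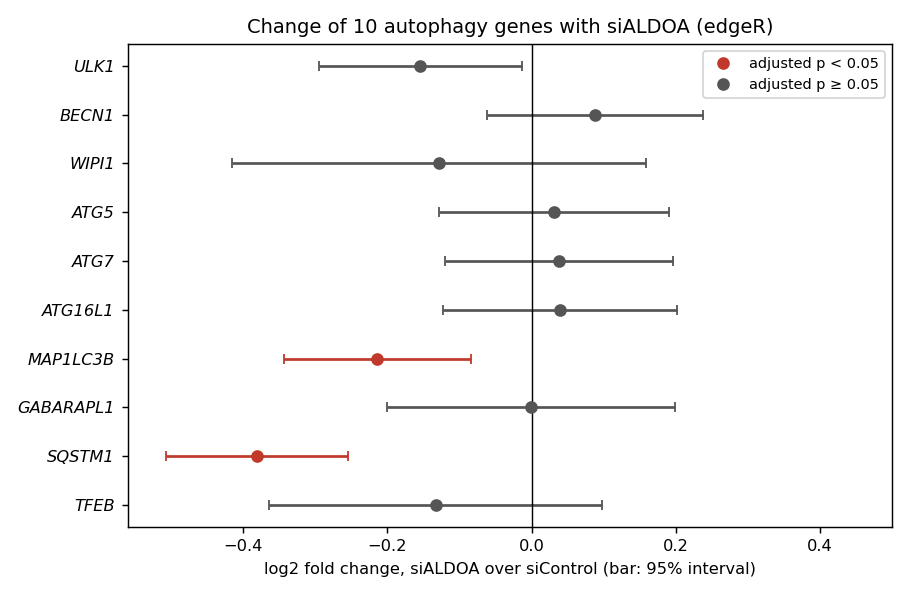
Log2 fold change of each of the 10 genes, siALDOA over siControl (x axis), from edgeR, with bars for the 95% interval and colour for the adjusted p. SQSTM1 at -0.38 and MAP1LC3B at -0.21 lie below 0 with an adjusted p under 0.05, and the other 8 points lie between -0.15 and 0.09.

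Per length, SQSTM1 stood far above the other genes. Divided by the length of its merged exons, its level was 87.6 ± 4.43 CPM per kb with siALDOA and 114 ± 4.37 with siControl (SD, n = 3). MAP1LC3B came next, at 12.3 ± 0.451 and 14.3 ± 0.345 CPM per kb. Over all 6 libraries the mean of SQSTM1 was 7.59 times that of MAP1LC3B and 40.8 times that of WIPI1, the lowest. In descending order BECN1, ATG5, ULK1, ATG16L1, GABARAPL1, ATG7, TFEB and WIPI1 followed MAP1LC3B. Of these neighbours, BECN1 and ATG5, ULK1 and ATG16L1, GABARAPL1 and ATG7, and TFEB and WIPI1 overlapped over the 6 libraries. The first 4 genes kept their order with the length of 1 canonical transcript per gene, while ULK1, ATG16L1, ATG7 and TFEB changed places.

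**Figure D2:**
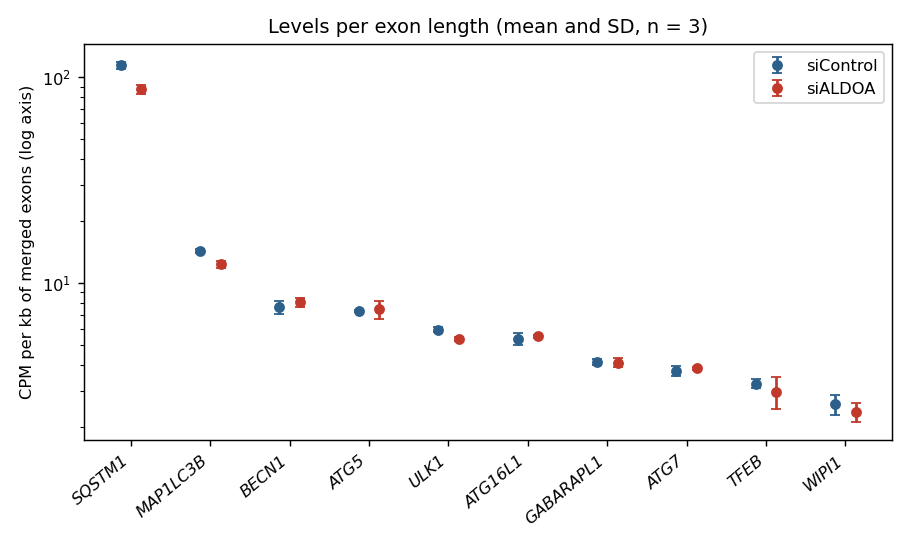
Level of each gene in CPM per kb of merged exons on a log axis, with points for the group means, bars for the SD (n = 3) and colour for the group. SQSTM1 lies at 87.6 and 114 CPM per kb, above the 12.3 and 14.3 of MAP1LC3B, and WIPI1 is lowest at 2.36 and 2.58.

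ULK1, the kinase that AMPK phosphorylates to start autophagy, was slightly lower with siALDOA without passing the test. The gene (ENSG00000177169, chr12:131894622-131923150, plus strand, hg38) was at 40.5, 40 and 41.6 CPM in the siALDOA replicates and at 46.5, 44.1 and 45.2 CPM in the siControl replicates. The 3 siALDOA libraries lay below the 3 siControl libraries, within a narrow band in both groups. The log2 fold change was -0.15 (SE 0.0674, 95% interval -0.29 to -0.01, edgeR adjusted p = 0.167), a change of -10.1% at the point estimate. The interval is for 1 gene without adjustment, and the adjusted p ranged from 0.134 to 0.651 over 15 alternatives. None of the 4 other genes of its complex (ULK2, ATG13, RB1CC1 and ATG101) passed edgeR, DESeq2 or limma-voom, and RB1CC1, the scaffold FIP200, had an unadjusted p below 0.05, with a log2 fold change of -0.22 (SE 0.0811, edgeR adjusted p = 0.0933).

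BECN1 encodes Beclin 1, the regulatory subunit of the class III PI3-kinase complexes that mark the forming membrane with phosphatidylinositol 3-phosphate. Its level (ENSG00000126581, chr17:42810134-42833350, minus strand) was 50.6, 50.2 and 54.8 CPM with siALDOA and 45.7, 48 and 52.7 CPM with siControl. The groups overlapped, with replicate 3 highest in both. BECN1 had a log2 fold change of 0.09 (SE 0.0717, 95% interval -0.06 to 0.24, edgeR adjusted p = 0.507). In the annotation 12.4% of its exonic bases lie opposite exons of CNTD1 and 4.68% opposite those of PSME3, listed at 4215 to 5651 counts per library. How reads on the shared stretches of BECN1 were assigned was not tested. Of the 7 other genes of these complexes 1 rose, 0 fell and 6 did not pass. The one that rose was ATG14, the subunit that takes the complex to sites of autophagosome formation. ATG14 was at 17.5, 17.8 and 17.8 CPM with siALDOA and 14.9, 13.1 and 13.6 CPM with siControl, so the groups did not overlap, with a log2 fold change of 0.35 (SE 0.0984, edgeR adjusted p = 0.0257). That call was lost when siALDOA replicate 2 was left out (adjusted p = 0.0721 in edgeR), and likewise for siALDOA replicate 3 (0.0666), siControl replicate 2 (0.116) and siControl replicate 3 (0.102). The log2 fold change in these fits was 0.31 to 0.35. AMBRA1, among the 6 that did not pass, had an unadjusted p below 0.05, with a log2 fold change of -0.17 (SE 0.0777, edgeR adjusted p = 0.199).

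WIPI1 reads the phosphatidylinositol 3-phosphate mark and was the least expressed of the 10 genes. Its level (ENSG00000070540, chr17:68420948-68457513, minus strand) was 7.04, 8.65 and 8.41 CPM with siALDOA and 9.49, 7.67 and 9.2 CPM with siControl. The highest and second highest values were siControl libraries, but siControl replicate 2 lay inside the siALDOA range. Its log2 fold change was -0.13 (SE 0.137, 95% interval -0.41 to 0.16, edgeR adjusted p = 0.632), the widest interval among the 10. Of the 9 other genes for membrane supply, 0 passed edgeR, DESeq2 or limma-voom, and WIPI2 and TMEM41B had an unadjusted p below 0.05, with log2 fold changes of 0.17 and 0.15. In the annotation, 24.4% of the exonic bases of WIPI1 lie opposite exons of ARSG, a sulfatase gene on the other strand, and the strand setting of the counting is not given in the sources used here. ARSG itself had a log2 fold change of -0.11 (SE 0.122, edgeR adjusted p = 0.658).

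The 3 genes of the conjugation system differed by less than their spread. ATG7 encodes the E1-like enzyme that activates ATG12 and the ATG8 proteins, ATG5 encodes the partner to which ATG12 is joined, and ATG16L1 encodes the protein that brings this pair to the membrane. ATG7 (ENSG00000197548, chr3:11272309-11557665, plus strand) was at 34.6, 34.2 and 33.4 CPM with siALDOA and 35.4, 31.9 and 32.1 CPM with siControl. The siALDOA libraries lay inside the siControl range. Its log2 fold change was 0.04 (SE 0.0757, 95% interval -0.12 to 0.20, edgeR adjusted p = 0.813). ATG5 (ENSG00000057663, chr6:106045423-106325791, minus strand) was at 47.1, 39.8 and 39.8 CPM with siALDOA and 41.7, 41 and 41.3 CPM with siControl. One siALDOA library was the highest of all 6 and the other 2 were the lowest. ATG5 had a log2 fold change of 0.03 (SE 0.0763, 95% interval -0.13 to 0.19, edgeR adjusted p = 0.854), and it was -0.06 without siALDOA replicate 1. ATG16L1 (ENSG00000085978, chr2:233210051-233295674, plus strand) was at 33.7, 33.7 and 32.6 CPM with siALDOA and 30.4, 34.9 and 32 CPM with siControl. Both ends of its range were siControl libraries. ATG16L1 had a log2 fold change of 0.04 (SE 0.0776, 95% interval -0.12 to 0.20, edgeR adjusted p = 0.815), and it was -0.0065 without siControl replicate 1. The 3 intervals lay between -0.13 and 0.20 on the log2 scale. Of the 8 other conjugation and ATG4 protease genes, 0 passed edgeR, DESeq2 or limma-voom, and ATG10 and ATG16L2 had an unadjusted p below 0.05, with log2 fold changes of 0.60 (SE 0.28) and 0.33 (SE 0.147). Of the exonic bases of ATG7, 18.1% lie opposite exons of VGLL4, whose log2 fold change was 0.07 (SE 0.0755, edgeR adjusted p = 0.621).

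MAP1LC3B, whose protein LC3B is lipidated and inserted into the autophagosome membrane, fell with siALDOA. The gene (ENSG00000140941, chr16:87383953-87404779, plus strand) was at 63.6, 63 and 59.4 CPM with siALDOA and at 73.2, 69.9 and 72.5 CPM with siControl. The highest siALDOA library was below the lowest siControl library. Means were 62.0 ± 2.27 and 71.9 ± 1.74 CPM (SD, n = 3), and the log2 fold change was -0.21 (SE 0.0624, 95% interval -0.34 to -0.08, edgeR adjusted p = 0.0341). The level fell by 13.8%. The call was kept without siALDOA replicate 1 and lost without any 1 of the other libraries. The edgeR adjusted p was then 0.075 without siALDOA replicate 2, 0.13 without siALDOA replicate 3 and 0.0928 without siControl replicate 1. It was 0.0682 without siControl replicate 2 and 0.132 without siControl replicate 3. These fits hold fewer libraries and called fewer genes, such as 359 higher and 490 lower without siControl replicate 2, against 668 and 810. The log2 fold change in these fits stayed between -0.23 and -0.18. Scaled by library totals only, which moved the median of all tested genes to 0.0753, it was -0.14 (edgeR adjusted p = 0.34). Of the canonical transcript, 276 of 2048 windows of 100 bases (13.5%) are identical in MAP1LC3B2, a near-identical copy that was listed at 6 to 27 counts per library and was not tested. The handling of reads with several matches is not given in the sources used here, and how reads fell between the copies was not tested.

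GABARAPL1 encodes an ATG8 protein of the other subfamily. Its level (ENSG00000139112, chr12:10212458-10223128, plus strand) was 16.1, 17.6 and 16.2 CPM with siALDOA and 17.3, 16.3 and 16.5 CPM with siControl. The 2 groups covered nearly the same range. The log2 fold change was 0.00 (SE 0.0957, 95% interval -0.20 to 0.20, edgeR adjusted p = 0.998). Of the 5 other genes of the ATG8 family, 3 were tested, 1 fell and 0 rose. The one that fell was MAP1LC3A, the LC3A gene, at 5.75, 6.09 and 5.42 CPM with siALDOA and 10.2, 9.44 and 8.22 CPM with siControl. Every siALDOA library lay below every siControl library, with a log2 fold change of -0.69 (SE 0.14, edgeR adjusted p = 0.00265). GABARAP was at 64.9, 68.7 and 68 against 62.1, 58.2 and 61.5 CPM, a log2 fold change of 0.15 (SE 0.0631, edgeR adjusted p = 0.15), again without overlap. The ratio of MAP1LC3B to GABARAP within a library, chosen after the values were seen, was 0.98, 0.916 and 0.873 with siALDOA and 1.18, 1.2 and 1.18 with siControl. This ratio is of CPM without length, so its shift between groups restates the shifts of both genes and does not order their levels. The 2 groups of ratios did not overlap (exact permutation test, two-sided p = 0.1, the smallest that 3 against 3 libraries can give).

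**Figure D3:**
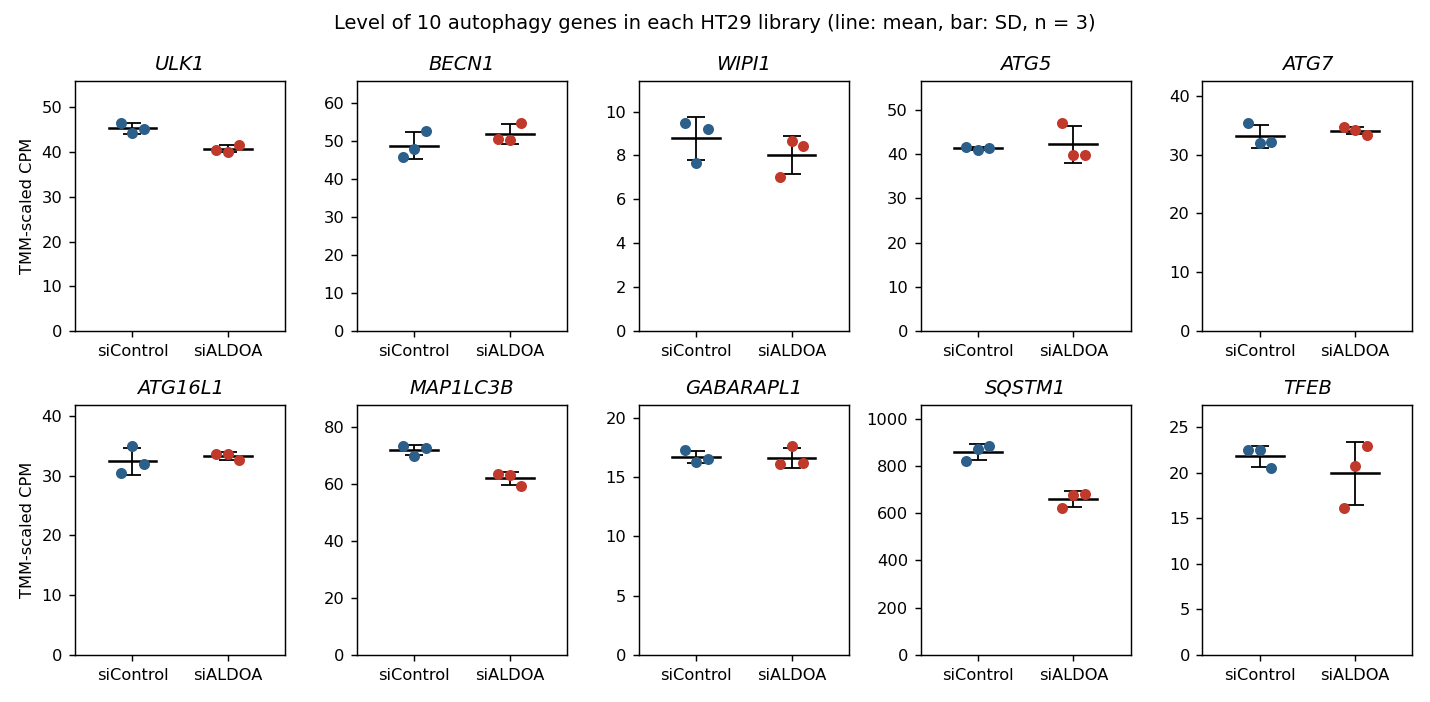
Level of each of the 10 genes in CPM, with 1 point per library, colour for the group and 1 panel per gene. The siALDOA points lie below the siControl points for ULK1, MAP1LC3B and SQSTM1, and the groups overlap in the other 7 panels.

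SQSTM1 showed the largest difference of the 10 genes. The gene (ENSG00000161011, chr5:179806398-179838078, plus strand) encodes p62, which binds ubiquitinated cargo and LC3 and is also a scaffold in stress signalling. It was at 622, 676 and 683 CPM in the siALDOA replicates and at 822, 874 and 883 CPM in the siControl replicates. The groups were far apart, with 660 ± 33.0 against 860 ± 33.1 CPM (SD, n = 3). The log2 fold change was -0.38 (SE 0.0605, 95% interval -0.51 to -0.25, edgeR adjusted p = 0.000265). Its level fell by 23.2%. In all 15 alternatives SQSTM1 kept the call, with log2 fold changes of -0.41 to -0.31 and adjusted p of 7.74e-10 to 0.0311 in edgeR, DESeq2 or limma-voom. The value of -0.31 came from scaling by library totals only. In the annotation 21.0% of its exonic bases lie opposite exons of MRNIP and 1.39% opposite those of MGAT4B, and both neighbours were listed at 0 counts in every library. How reads on these shared stretches were assigned was not tested.

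Of the 13 other cargo receptors, 10 did not pass the test, 1 rose and 2 fell, 23.1% called against 9.66% of all tested genes. OPTN, the receptor optineurin, rose: it was at 51.2, 51.8 and 46 CPM with siALDOA and 38.9, 40 and 36.8 CPM with siControl, a log2 fold change of 0.37 (SE 0.0718, edgeR adjusted p = 0.00204). TAX1BP1, another ubiquitin-binding receptor, fell from 145, 147 and 145 CPM to 118, 107 and 109 CPM, a log2 fold change of -0.39 (SE 0.0588, edgeR adjusted p = 0.000141). CCPG1, a receptor for the endoplasmic reticulum, fell from 151, 151 and 150 CPM to 126, 117 and 121 CPM, a log2 fold change of -0.31 (SE 0.0567, edgeR adjusted p = 0.00102). Scaled by library totals only, CCPG1 was at -0.24 with an adjusted p of 0.0579 in edgeR. NBR1, which shares the domain layout of p62, was at 183, 163 and 170 against 164, 155 and 155 CPM, overlapping between the groups. NBR1 and BNIP3L had an unadjusted p below 0.05 in edgeR without passing the test, with log2 fold changes of 0.12 and 0.19. The ratio of SQSTM1 to OPTN within a library, chosen after the values were seen, was 12.2, 13 and 14.8 with siALDOA and 21.1, 21.9 and 24 with siControl, without overlap. Being of CPM without length, it does not order their levels, and its shift restates the fall of SQSTM1 and the rise of OPTN. The ratios of SQSTM1 to MAP1LC3B were 9.79, 10.7 and 11.5 against 11.2, 12.5 and 12.2, which overlapped.

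TFEB, the transcription factor whose entry into the nucleus AMPK and mTORC1 control, did not pass the test at the mRNA level. Its level (ENSG00000112561, chr6:41683978-41736259, minus strand) was 16.1, 20.8 and 22.9 CPM with siALDOA and 22.5, 22.5 and 20.5 CPM with siControl. The siALDOA libraries spread from the lowest to the highest of all 6, with replicate 1 apart from the rest. TFEB had a log2 fold change of -0.13 (SE 0.111, 95% interval -0.36 to 0.10, edgeR adjusted p = 0.515), and it ranged from -0.25 to -0.0012 over 15 alternatives. Of the 5 related transcription factors, 3 were tested and 0 passed edgeR, DESeq2 or limma-voom, with FOXO1 at an unadjusted p below 0.05. FOXO1, which switches on autophagy genes, was at 26.4, 25.6 and 24.8 against 31.1, 28.3 and 29.7 CPM, a log2 fold change of -0.22 (SE 0.0802, edgeR adjusted p = 0.0967). MITF and TFEC were listed at 0 to 7 counts per library and were not tested.

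The lysosomal genes that TFEB is known to drive, the CLEAR network, were described by a list of 21 genes, of which 20 were tested and CTSF was listed at 0. Of these 2 rose, 1 fell and 17 did not pass, 15% called against 9.66% of all tested genes, with a median log2 fold change of 0.08. CTSD, the protease cathepsin D, fell: it was at 369, 400 and 432 CPM with siALDOA and 569, 556 and 585 CPM with siControl, a log2 fold change of -0.51 (SE 0.0607, edgeR adjusted p = 8.11e-06). NEU1, the lysosomal sialidase, rose, with overlapping libraries at 163, 134 and 157 against 140, 113 and 114 CPM and a log2 fold change of 0.30 (SE 0.0808, edgeR adjusted p = 0.0211). The NEU1 call was lost without siALDOA replicate 1 (edgeR adjusted p = 0.071), siALDOA replicate 3 (0.0836), siControl replicate 2 (0.144) or siControl replicate 3 (0.132), with log2 fold changes of 0.24 to 0.27. With siControl replicate 3 left out, 0 of the CLEAR genes rose.

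The promoters of the 2 genes that fell are shown because TFEB binds the E-box CACGTG in its target promoters. They are the 250 bases before the RefSeq start (GRCh38.p14) nearest the canonical one, and would carry the motif in capitals. SQSTM1 is at chr5:179820655-179820904 and MAP1LC3B at chr16:87392086-87392335, both on the plus strand. Neither stretch holds the motif. SQSTM1 has 3 RefSeq starts and MAP1LC3B has 1, and for SQSTM1 only the nearest start is given.
SQSTM1: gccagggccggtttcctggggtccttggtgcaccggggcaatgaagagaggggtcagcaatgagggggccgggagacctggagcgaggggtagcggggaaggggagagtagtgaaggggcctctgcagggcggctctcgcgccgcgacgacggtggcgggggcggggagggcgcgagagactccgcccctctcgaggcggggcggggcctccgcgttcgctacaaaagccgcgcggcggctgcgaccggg
MAP1LC3B: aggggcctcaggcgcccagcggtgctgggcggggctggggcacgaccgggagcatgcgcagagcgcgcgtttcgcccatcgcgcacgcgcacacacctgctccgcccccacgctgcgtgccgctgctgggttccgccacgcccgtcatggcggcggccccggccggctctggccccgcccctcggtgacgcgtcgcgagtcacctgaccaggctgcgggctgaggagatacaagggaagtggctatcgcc

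Over the 300 bases from 250 before to 50 after the start, CACGTG, which reads the same on both strands, occurred in 0 of the 10 promoters. For each gene the listed start nearest the canonical one was used, 323 bases away for ATG5 and 403 for BECN1. CACGTG occurred in 7.26% of 35116 promoters in the table, which holds several starts for some genes, so the units differ. Of the 12 CLEAR genes with an entry, 8 (66.7%) held CACGTG, and that list is known in part through this motif. Of the 9 genes with an entry that passed the test in the autophagy, CLEAR and AMPK lists, SQSTM1 and MAP1LC3B included, 3 held it. MAP1LC3A also passed the test but had no entry, so it was not searched. The 3 were ATG14, which rose, CTSD, which fell, and NEU1, which rose. Their windows of 30 bases, with the motif in capitals, lie on the minus strand at chr14:55411834-55411863, chr11:1763957-1763986 and chr6:31862930-31862959. A match is a match of letters and not a measured binding site.
ATG14: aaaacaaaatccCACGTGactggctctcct
CTSD: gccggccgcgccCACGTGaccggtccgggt
NEU1: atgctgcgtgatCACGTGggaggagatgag

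Across the 8 autophagy lists, 59 genes stood beside the 10, and 55 of them were tested. Of these 2 rose, 3 fell and 50 did not pass, 9.09% called against 9.66% of all tested genes, with a median log2 fold change of 0.02. At an unadjusted p below 0.05, 11 of the 55 were higher and 6 lower, where 11.3% and 12.3% of all tested genes were, and whether this split differs from that of all genes was not tested. The 5 called were ATG14, OPTN, MAP1LC3A, TAX1BP1 and CCPG1. In the fusion list, 0 of 8 genes passed edgeR, DESeq2 or limma-voom, and STX17 and PLEKHM1, which act where autophagosome and lysosome meet, had an unadjusted p below 0.05, with log2 fold changes of 0.18 and 0.23. Of the AMPK subunits upstream, 5 of 7 were tested, 0 rose and 1 fell. That gene was PRKAG2, a regulatory gamma subunit, at 13.9, 12.4 and 12.7 against 18.5, 17.4 and 17.6 CPM (log2 fold change -0.46, SE 0.0996, edgeR adjusted p = 0.00496). The catalytic subunit PRKAA1 was at 241, 223 and 229 against 240, 234 and 236 CPM, a log2 fold change of -0.04 (SE 0.055, edgeR adjusted p = 0.740), and PRKAA2 had 2 counts in 1 library and none in the others.

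**Figure D4:**
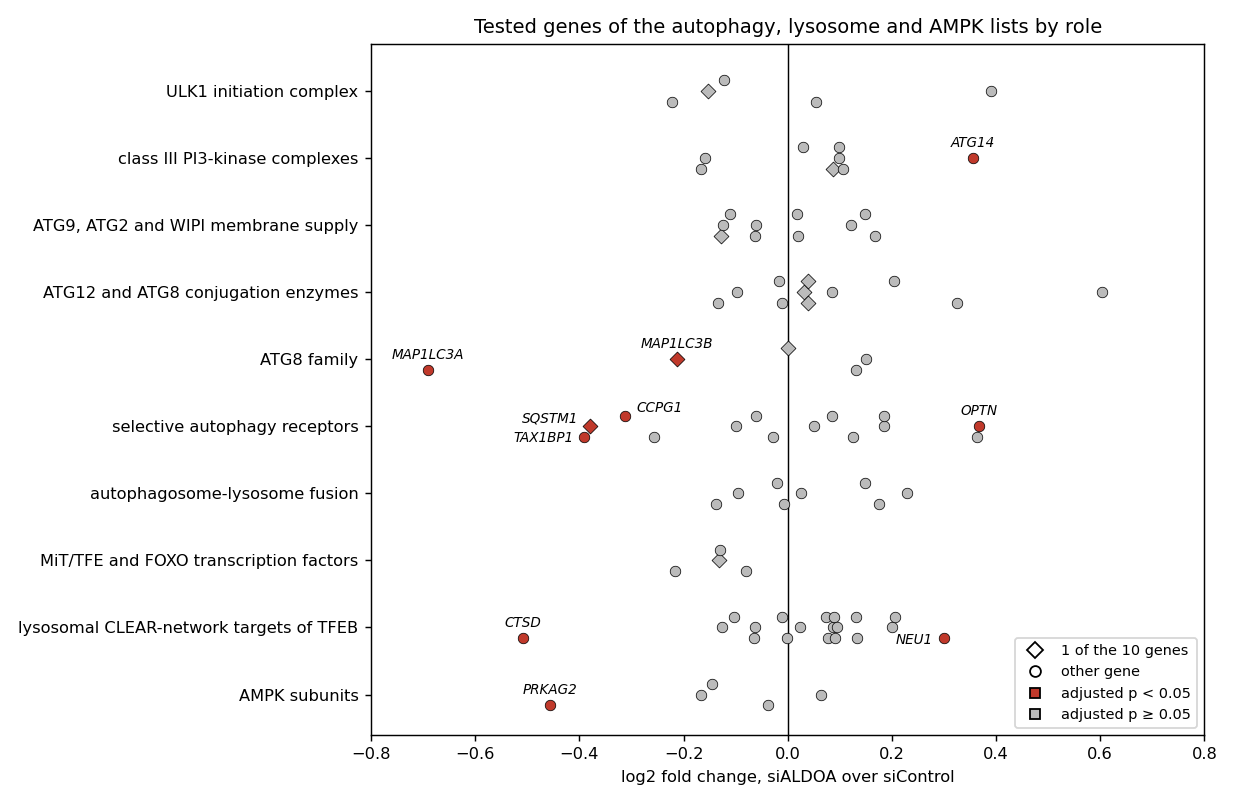
Log2 fold change, siALDOA over siControl (x axis), of tested genes of each list (rows), with diamonds for the 10 genes, circles for the others and red for an adjusted p under 0.05 in edgeR. The called genes lie on both sides of 0, from MAP1LC3A at -0.69 to OPTN at 0.37.

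The list genes whose levels followed those of SQSTM1 and MAP1LC3B most closely were found by Pearson's r of log2 CPM over the 6 libraries among 89 genes. For SQSTM1 they were CTSD (r = 0.981), VMP1 (0.953) and TFE3 (0.927). For MAP1LC3B they were FOXO1 (0.978), PRKAG2 (0.957) and TAX1BP1 (0.943). The 6 libraries are 2 groups of 3, so any gene that is lower in one group has a high r, and the values describe the libraries only. VMP1 was at 111, 110 and 114 against 118, 122 and 122 CPM and TFE3 at 52.6, 56.1 and 56.3 against 61.1, 59.4 and 60.3 CPM, lower in each siALDOA library without passing the edgeR test.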

How the data were processed

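RNA-Seq libraries of HT29 cells, 3 siALDOA and 3 siControl, were grouped by the sample labels. Reads had been mapped by the authors with TopHat2 (hg38) and assigned to genes with gfold. Whole-number counts per gene symbol were deposited, 1 file per library, without normalization. Annotation, strand setting and treatment of multi-mapping reads are not given in the sources used here. Library totals were 27277538 to 33237914 counts, and replicates of a group differed by more than sampling noise (chi-square per degree of freedom 5.05 to 90.8).

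Genes were filtered with filterByExpr, scaled with TMM factors and tested over all 15307 genes with the quasi-likelihood F-test of edgeR 4.0.16 in R 4.3.3, without covariates, with Benjamini-Hochberg adjustment and a threshold of 0.05. SE is the log2 fold change over the square root of F. Log2 CPM used a prior count of 2. Gene positions and exon lengths came from GENCODE release 44, promoters from RefSeq GRCh38.p14 (python 3.11.15, pandas 2.3.3), and figures from matplotlib 3.10.9. The code was tested on simulated data.

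The 10 genes and the other lists were chosen with earlier results of these data known. 1 lysosomal gene counted in its list is not reported here. All 10 were named, and from each list every gene with an adjusted p below 0.05, at most 4 per direction. Others named for an unadjusted p, for their position or in ratios were chosen after their values were seen. Alternatives were DESeq2 1.42.0, limma-voom (limma 3.58.1), library totals only, DESeq2 size factors, upper quartile normalization, leaving out ribosomal RNA genes, a replicate block, no filter, a minimum of 10 counts in every library, the unadjusted P < 0.01 and each library left out in turn. The canonical transcript length was added after the data were seen.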

Additional observations from a re-analysis of the deposited data

How the results depend on the processing

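SQSTM1 and ALDOA kept direction and call in all 15 alternatives, and the adjusted p of ULK1, BECN1, WIPI1, ATG5, ATG7, ATG16L1, GABARAPL1 and TFEB stayed above the threshold in all 15. With library totals only, 1 gene of the 10 fell instead of 2, because MAP1LC3B was at -0.14, and all tested genes split into 896 higher and 279 lower instead of 668 and 810. With each library left out in turn, 1 to 2 of the 10 genes fell, and the log2 fold change ranged from -0.2349 to -0.1847 for MAP1LC3B, from -0.0551 to 0.0713 for ATG5 and from -0.0065 to 0.0927 for ATG16L1. Such fits gave 1 to 3 other autophagy genes higher and 0 to 2 CLEAR genes higher. They hold fewer samples. With canonical transcript lengths SQSTM1 was 8.58 times MAP1LC3B per kb, against 7.59. The labels do not say that a replicate number marks a shared batch, and deviations of same-numbered libraries correlated at 0.123, 0.0765 and 0.0793, each the best match of its library, which is a hint from the data and not from the design. A replicate block gave 0 of the 10 genes higher and 2 lower as before, with 987 higher and 1175 lower over all genes, and MAP1LC3B at -0.2139 (edgeR adjusted p = 0.0161). With 3 libraries per group, changes of the size seen in MAP1LC3B lie near the limit of these calls, and WIPI1, at 196 to 303 counts per library, had the least precise value.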
